A study of Mus musculus with 6 samples.

Results

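Transcript levels of 7 caspase genes, Casp1, Casp2, Casp4, Casp6, Casp8, Casp9 and Casp12, were read in mouse quadriceps, the knee extensor muscle of the thigh, with and without muscle Klf15. The 7 were chosen by gene symbol from the 23314 genes of the deposited matrix, and each symbol matched 1 gene. The family was taken up because Casp12 had already stood out in the comparison of the genotypes reported here. The values of the members in that comparison are therefore given as a description, with no test.

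Both groups were 2 months old and carried Cre recombinase under Myogenin control, with the genotype Myogenin-Cre/+ for the MyoCre control and Myogenin-Cre/+;K15F/F for the K15SKO knockout, which adds floxed Klf15. Myogenin is switched on in differentiating muscle cells, so vessel, fat, immune and connective tissue cells of the same muscle are not targeted by this Cre. Each group held 3 libraries, numbered 1 to 3 by the labels, whereas the design text speaks of n = 4; separate animals are not stated by the labels, so the spread may be partly technical. Values are FPKM, fragments counted per transcript length and per mapped library size, which allows levels to be compared between genes.

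Caspases are proteases that use a cysteine to cut proteins after aspartate, and they are made as inactive precursors. In apoptosis, initiator caspases (Casp8 below death receptors, Casp9 on the apoptosome, Casp2 on the PIDDosome) switch on executioner caspases such as Casp6. Inflammatory caspases (Casp1 and Casp4, the latter the intracellular sensor of bacterial lipopolysaccharide in the mouse) cut gasdermin D and lead to pyroptosis. Casp12 belongs to the inflammatory group by sequence and its protein has been placed at the endoplasmic reticulum.

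The active site shows what the 7 share and where they differ. For each member the coding bases around the catalytic cysteine are printed from the GENCODE M21 transcripts. The capitals mark the codons for glutamine, alanine, the catalytic cysteine, a variable residue and glycine, found once in the longest reading frame of each gene:
Casp12: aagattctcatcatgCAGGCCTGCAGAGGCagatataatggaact
Casp1: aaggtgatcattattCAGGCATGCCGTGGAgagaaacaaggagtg
Casp4: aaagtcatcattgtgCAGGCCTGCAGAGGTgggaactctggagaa
Casp8: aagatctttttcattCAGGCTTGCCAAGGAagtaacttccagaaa
Casp9: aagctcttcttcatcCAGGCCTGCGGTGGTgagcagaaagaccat
Casp2: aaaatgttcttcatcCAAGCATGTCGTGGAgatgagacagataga
Casp6: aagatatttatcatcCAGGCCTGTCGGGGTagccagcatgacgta
The cysteine codon was intact in every member, Casp12 included. Over the coding sequence, Casp12 shared 62.1% of aligned bases with Casp4 and 59.4% with Casp1, against 56.9% with Casp6, 53.5% with Casp8, 50.7% with Casp9 and 50.5% with Casp2. Identities among all 21 pairs ran from 50.5% to 62.1%, so no pair was a near-identical copy.

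The 3 inflammatory members lie side by side on the plus strand of chromosome 9 in GRCm38, the mm10 assembly. Casp1 runs from 5298517 to 5307265, Casp4 from 5308828 to 5336783 and Casp12 from 5345430 to 5373032. The gaps are 1562 bases between Casp1 and Casp4 and 8646 bases between Casp4 and Casp12. The promoters of these 3 neighbours, 250 bases before to 50 after the annotated start, are printed from RefSeq (GRCm38.p6). The one given for Casp4 belongs to the first of its 2 annotated starts. Capitals mark matches to CACCC or its reverse complement GGGTG, a core motif of Krüppel-like factors, the family to which Klf15 belongs:
Casp12, chr9:5345226-5345525, plus strand: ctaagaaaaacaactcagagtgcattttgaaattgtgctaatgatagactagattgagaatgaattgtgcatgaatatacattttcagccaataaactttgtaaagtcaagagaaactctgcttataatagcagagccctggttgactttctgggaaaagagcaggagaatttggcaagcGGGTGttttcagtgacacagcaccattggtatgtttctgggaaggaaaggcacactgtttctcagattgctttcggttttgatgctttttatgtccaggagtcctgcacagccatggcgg
Casp4, chr9:5308599-5308898, plus strand: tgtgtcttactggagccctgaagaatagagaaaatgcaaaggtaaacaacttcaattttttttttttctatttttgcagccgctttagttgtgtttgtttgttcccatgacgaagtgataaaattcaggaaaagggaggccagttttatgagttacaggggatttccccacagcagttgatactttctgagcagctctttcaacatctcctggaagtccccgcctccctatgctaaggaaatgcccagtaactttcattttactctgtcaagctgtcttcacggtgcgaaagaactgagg
Casp1, chr9:5298267-5298566, plus strand: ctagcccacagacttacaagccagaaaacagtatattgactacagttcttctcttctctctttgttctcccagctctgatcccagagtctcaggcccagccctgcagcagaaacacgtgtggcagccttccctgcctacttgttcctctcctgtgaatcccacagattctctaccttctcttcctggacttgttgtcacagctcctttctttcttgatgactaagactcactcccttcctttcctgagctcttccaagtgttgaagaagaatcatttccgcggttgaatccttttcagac
The Casp12 window held 1 match, GGGTG at position -70 from the start, and the windows of Casp4 and Casp1 held none. Across 32851 promoters of the same length, 57.5% held at least 1 match. Among the other members, Casp6 held 3 matches, Casp9 and Casp2 held 1 each and Casp8 held none; all 7 symbols had a promoter in the table. A match describes letters only and is not a measured binding site.

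Klf15 itself was listed at 35.2, 28.4 and 30.5 FPKM across MyoCre libraries 1 to 3 and at 2.22, 21.7 and 5.32 FPKM across K15SKO libraries 1 to 3, so the library labelled K15SKO 2 was at 69.3% of the control mean. The K15SKO libraries also differed in transcripts of other tissues: 13 liver markers summed to 5800 FPKM in K15SKO 2, to 74.1 and 15.03 FPKM in K15SKO 1 and 3, and to between 8.16 and 18.0 FPKM in MyoCre. Of those 13, 12, 13 and 11 were above every MyoCre library in K15SKO 1, 2 and 3, with albumin (Alb) at 4.36 FPKM in K15SKO 3 against 0.298 to 1.13 FPKM in MyoCre. The part of these transcripts in the Klf15 values was not tested. Of all 23314 genes, 36.6%, 36.8% and 29.9% were above every MyoCre library in K15SKO 1, 2 and 3, and 28.7%, 28.6% and 20.6% were below every one. K15SKO 3 correlated at 0.968 to 0.975 with the MyoCre libraries and at 0.942 and 0.880 with K15SKO 1 and 2 (Pearson, over 11607 genes, which are not independent). From the steps between the lowest values, depth relative to MyoCre 1 ranged from 0.779 (K15SKO 1) to 1.57 (K15SKO 2); the absolute depth is unknown. The muscle identity of the samples is plain from Mylpf, the fast myosin regulatory light chain, at 9578 to 13469 FPKM in all 6 libraries.

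Casp12 was the most abundant caspase of the 7 in every library. It stood at 12.8, 11.9 and 11.8 FPKM across MyoCre libraries 1 to 3 and at 5.91, 6.01 and 6.43 FPKM across K15SKO libraries 1 to 3. All 3 K15SKO libraries lay below all 3 MyoCre libraries, and the values within each group lay close together. The means were 12.2 ± 0.540 FPKM in MyoCre and 6.12 ± 0.276 FPKM in K15SKO (SD, n = 3 each), so K15SKO held 50.3% of the control level. On the log2(FPKM + 1) scale, which understates the change of low genes, the difference was −0.89 (SE 0.09 from limma). This difference was part of the ground for choosing Casp12 and carries no test here.

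The SD of the Casp12 log2 values within K15SKO was 0.055, against a median of 0.224 over the 11607 genes with a mean of at least 1 FPKM, and 5.83% of those genes had a smaller SD. In MyoCre it was 0.059 against a median of 0.115, and 17.7% of the genes had a smaller SD. A small spread within the groups is part of what made Casp12 stand out, so nothing is read from it. Against the control mean, Casp12 stood at −0.93, −0.91 and −0.82 log2 units in K15SKO 1 to 3.

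**Figure D1:**
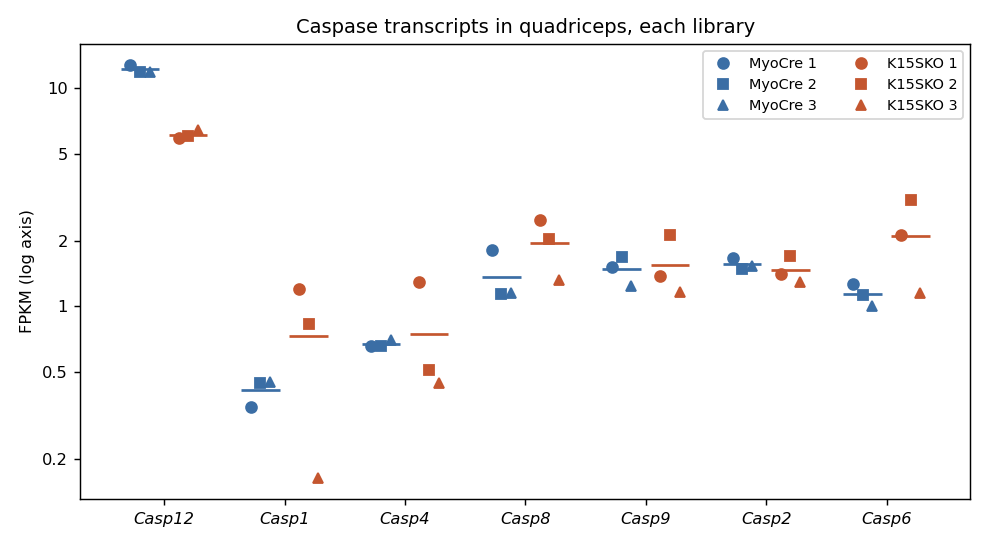
Levels of the 7 caspase transcripts in FPKM on a log axis, with a point for each library (circle, square and triangle for replicates 1, 2 and 3) and a line for each group mean. Casp12 is at 11.8 to 12.8 FPKM in MyoCre and 5.91 to 6.43 FPKM in K15SKO with no overlap, while the groups overlap for the other 6 genes.

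Casp12 was the single member whose groups did not overlap, 1 of 7, in the lower direction. Among all 23314 genes, 7.68% were lower and 10.1% higher in K15SKO without overlap, 17.8% in all. Since Casp12 was chosen from this contrast, nothing is read from that count. The filter of a mean of at least 1 FPKM was passed by 5 members and missed by 2, Casp1 and Casp4. Over the 11607 genes above the filter, limma called 0.0517% at an adjusted p of 0.05, 0.0172% higher and 0.0345% lower.

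Casp1, which matures interleukin-1 beta, was the lowest member in MyoCre. It was listed at 0.347, 0.444 and 0.449 FPKM across MyoCre libraries 1 to 3 and at 1.21, 0.830 and 0.164 FPKM across K15SKO libraries 1 to 3. K15SKO 1 and 2 were above all MyoCre libraries and K15SKO 3 was below all of them. The means were 0.413 ± 0.0574 and 0.734 ± 0.529 FPKM (SD, n = 3 each), a log2 difference of 0.25 (SE 0.24, from the fit without the filter).

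Casp4 was listed at 0.661, 0.661 and 0.705 FPKM across MyoCre libraries 1 to 3 and at 1.30, 0.514 and 0.445 FPKM across K15SKO libraries 1 to 3. K15SKO 1 was above the control range and the other two were below it. The log2 difference of 0.03 (SE 0.19, from the fit without the filter) had no stable sign: it was −0.18 without K15SKO 1 and −0.07 after quantile scaling. Of the 3 neighbours on chromosome 9, Casp12 alone was lower in all 3 K15SKO libraries. The ratio of Casp12 to the sum of Casp1 and Casp4 was 12.7, 10.7 and 10.3 across MyoCre libraries 1 to 3 and 2.36, 4.47 and 10.6 across K15SKO libraries 1 to 3.

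Macrophages carry inflammatory caspases, and the macrophage markers were highest in K15SKO 1 and 2, as Casp1 was. Their summed level was 60.4, 59.0 and 49.2 FPKM across MyoCre libraries 1 to 3 and 399, 225 and 46.8 FPKM across K15SKO libraries 1 to 3. In K15SKO 1, 2 and 3, 15, 14 and 1 of the 15 markers were above every MyoCre library. The shares over all 23314 genes were 36.6%, 36.8% and 29.9%. Cd68, a lysosomal protein of macrophages, was at 0.895 to 1.45 FPKM in MyoCre and at 43.8, 43.6 and 1.24 FPKM across K15SKO libraries 1 to 3. Their part in the Casp1, Casp4, Casp8 and Casp6 values was not tested. Markers of lymphocytes and neutrophils summed to between 0.555 and 2.57 FPKM in all libraries. In whole muscle, fewer cells of a type and less RNA per cell cannot be told apart.

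Adipocyte markers were lower in K15SKO, as Casp12 was, and all 8 were below every MyoCre library in each K15SKO library. Of all 23314 genes, 28.7%, 28.6% and 20.6% were below every MyoCre library in K15SKO 1, 2 and 3. The adipocyte sum was 582, 1093 and 424 FPKM across MyoCre libraries 1 to 3 and 185, 124 and 245 FPKM across K15SKO libraries 1 to 3. Casp12 ran from 11.8 to 12.8 FPKM in MyoCre and from 5.91 to 6.43 FPKM in K15SKO. Endothelial markers summed to 45.0 to 56.7 FPKM in MyoCre and to 32.0, 37.1 and 63.4 FPKM across K15SKO libraries 1 to 3. Fibroblast and progenitor markers summed to 243 to 283 FPKM in MyoCre and to 407, 275 and 228 FPKM across K15SKO libraries 1 to 3. Their sum holds opposite movements. Of these 8 markers, 4, 4 and 0 were above every MyoCre library in K15SKO 1, 2 and 3, and 2, 4 and 6 below. The 7 listed skeletal muscle markers summed to 39302 to 46296 FPKM in MyoCre and to 29376, 29402 and 47674 FPKM across K15SKO libraries 1 to 3. Of these 7, 1, 1 and 6 were above every MyoCre library in K15SKO 1, 2 and 3, and 6, 6 and 0 below. Des was above in each, at 2376, 2018 and 1437 FPKM against 1005 to 1191 FPKM in MyoCre. Markers of regenerating muscle and satellite cells summed to 15.1 to 25.1 FPKM in MyoCre and to 81.6, 67.4 and 22.4 FPKM across K15SKO libraries 1 to 3. Of those 8, 7, 5 and 5 were above every MyoCre library in K15SKO 1, 2 and 3. Among all 23314 genes the shares above were 36.6%, 36.8% and 29.9%. Myog, the gene whose control drives the Cre, was at 1.84 to 2.36 FPKM in MyoCre and at 31.9, 27.3 and 3.90 FPKM across K15SKO libraries 1 to 3. The part of these cell types in the Casp12 difference was not tested.

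Casp8, the initiator below death receptors, was listed at 1.81, 1.14 and 1.15 FPKM across MyoCre libraries 1 to 3 and at 2.50, 2.04 and 1.32 FPKM across K15SKO libraries 1 to 3. K15SKO 1 and 2 were above the control range and K15SKO 3 was within it. The means were 1.37 ± 0.383 and 1.95 ± 0.592 FPKM (SD, n = 3 each), a log2 difference of 0.31 (SE 0.21). Casp8 lies on chromosome 1 from 58795374 to 58847503, a span that also holds the unclassified transcript Gm37760 on the same strand, listed at 0 to 0.0183 FPKM.

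Casp9, the caspase of the apoptosome, was listed at 1.51, 1.68 and 1.25 FPKM across MyoCre libraries 1 to 3 and at 1.38, 2.11 and 1.16 FPKM across K15SKO libraries 1 to 3. The K15SKO values lay on both sides of the control range. The log2 difference of 0.03 (SE 0.18) turned to −0.12 without K15SKO 2, −0.04 without MyoCre 3 and −0.02 after quantile scaling. Casp9 lies on chromosome 4 from 141793612 to 141815976, where its end overlaps the pancreatic protease genes Cela2a and Ctrc on the other strand. Cela2a was at 0.0651 FPKM in K15SKO 2, where Casp9 was highest, and was listed at 0 in the other 5 libraries; Ctrc was not analysed here. The part of the overlapping gene in that Casp9 value was not tested.

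Casp2, the caspase of the PIDDosome, had the narrowest spread within K15SKO after Casp12 on the log2(FPKM + 1) scale (SD 0.117 and 0.055). In FPKM its SD was the smaller of these 2 genes, at 0.203 against 0.276. It was listed at 1.66, 1.49 and 1.53 FPKM across MyoCre libraries 1 to 3 and at 1.41, 1.69 and 1.30 FPKM across K15SKO libraries 1 to 3, on both sides of the control range. The means were 1.56 ± 0.0908 and 1.47 ± 0.203 FPKM (SD, n = 3 each), a log2 difference of −0.06 (SE 0.14). Casp2 lies on chromosome 6 from 42264985 to 42282508 and holds a small nucleolar RNA gene on the same strand, not analysed here.

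Casp6, an executioner that cuts nuclear lamins, was listed at 1.26, 1.13 and 1.01 FPKM across MyoCre libraries 1 to 3 and at 2.12, 3.06 and 1.16 FPKM across K15SKO libraries 1 to 3. K15SKO 1 and 2 were above the control range and K15SKO 3 was within it. The means were 1.13 ± 0.129 and 2.11 ± 0.949 FPKM (SD, n = 3 each), a log2 difference of 0.50 (SE 0.24), the largest upward difference of the 7. Casp6 lies on chromosome 3 from 129901425 to 129914103. Its highest value was in K15SKO 2, where liver markers were highest, and their part in it was not tested; without that library the difference was 0.28.

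Read library by library, 4 members were above every MyoCre library in K15SKO 1, 5 in K15SKO 2 and 0 in K15SKO 3, beside 36.6%, 36.8% and 29.9% of all 23314 genes. In K15SKO 3, 5 of the 7 were below every MyoCre library, beside 20.6% of all genes. These counts rest on the contrast from which the family was taken, and nothing is read from them. The order of levels in MyoCre was Casp12, Casp2, Casp9, Casp8, Casp6, Casp4 and Casp1. The ranges of neighbours overlapped from Casp2 through Casp6 and did not overlap between Casp12 and Casp2, Casp6 and Casp4, or Casp4 and Casp1. In K15SKO the order was Casp12, Casp6, Casp8, Casp9, Casp2, Casp4 and Casp1, with overlapping neighbours from Casp6 through Casp2 and for Casp4 and Casp1.

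Casp12 made up 63.8%, 64.4% and 66.0% of the summed FPKM of the 7 across MyoCre libraries 1 to 3 and 37.4%, 37.0% and 53.7% in K15SKO 1 to 3. The sum of the 7 was 18.8 ± 1.10 FPKM in MyoCre and 14.7 ± 2.35 FPKM in K15SKO (SD, n = 3 each). The other 6 together held 7.25, 6.55 and 6.09 FPKM across MyoCre libraries 1 to 3 and 9.91, 10.2 and 5.55 FPKM across K15SKO libraries 1 to 3. The lower share in K15SKO 1 and 2 thus holds a lower Casp12 and a higher sum of the rest, and that in K15SKO 3 a lower Casp12 beside a sum of the rest below the MyoCre range.

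**Figure D2:**
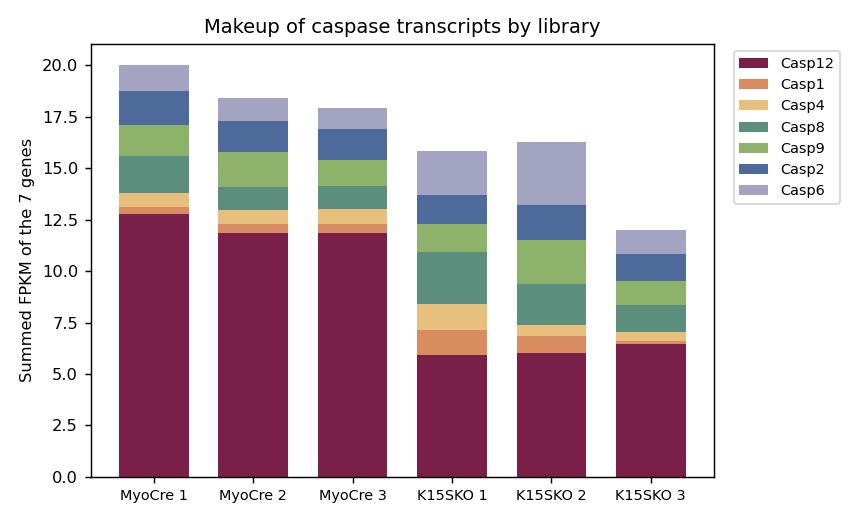
Summed FPKM of the 7 caspase genes in each library, stacked by gene with Casp12 at the base. Casp12 fills 63.8% to 66.0% of the MyoCre bars and 37.0% to 53.7% of the K15SKO bars, and K15SKO 3 has the lowest total.

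The genes around the chromosome 9 cluster were read to place the Casp12 difference, a set taken after values were seen. Within 3 Mb of the Casp12 start, 10 other protein-coding genes had a mean of at least 1 FPKM, the nearest of them 969 kb away. Their log2 differences ran from −0.23 to 0.60 with a median of −0.09. Casp12 was chosen for its own value, so nothing is read from its place among them. Birc3, an inhibitor of apoptosis, was the highest of the 10, and its neighbour Birc2, a related inhibitor, stood at −0.17. Genes in the window with a mean under 1 FPKM were left out of that range. Among those left out, Pdgfd, 823 kb away, stood at −0.28 and Mmp12 at 1.09.

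**Figure D3:**
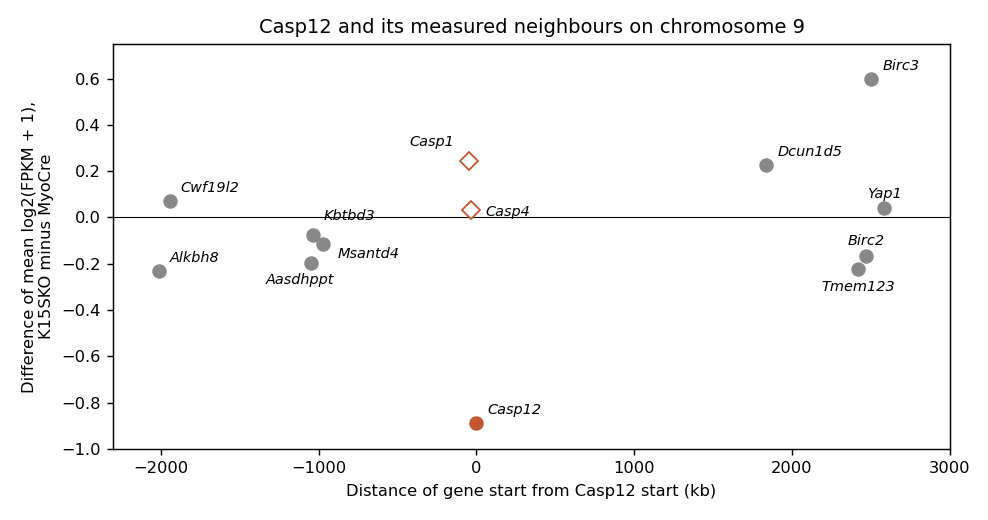
Difference of mean log2(FPKM + 1), K15SKO minus MyoCre, against distance of the gene start from that of Casp12 in kb, for the 3 caspases (orange, with open diamonds for those below 1 FPKM) and the 10 other protein-coding genes within 3 Mb that had a mean of at least 1 FPKM (grey). Other genes below that mean are not drawn. Casp12 is at −0.89 and the grey points lie between −0.23 and 0.60.

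The genes whose profile lay closest to Casp12 were ranked by the root mean square difference of log2(FPKM + 1), centred on each gene's mean, over the 6 libraries and 10215 genes. These were genes above the filter, without those at 0 throughout a group and without gene names of the Gm, Rik, Mir, Snor and -ps kinds. The nearest was Tpx2, a spindle assembly factor, at 0.039, against a median of 0.463 over all genes searched. It stood at 3.87, 3.36 and 3.67 FPKM across MyoCre libraries 1 to 3 and at 1.53, 1.46 and 1.57 FPKM across K15SKO libraries 1 to 3. Next came BC023105 (0.084), Cox6a2, a respiratory chain subunit of muscle (0.0998), Cacna2d4, a calcium channel subunit (0.113), and Pnpla3, a lipid droplet lipase (0.123). All 5 were lower in each K15SKO library than in every MyoCre library, as a profile like that of Casp12 requires. Cacna2d4 and Pnpla3 had means of 0.666 and 0.624 FPKM in K15SKO and of 2.00 and 1.99 FPKM in MyoCre. These 2 genes reached the filter only through MyoCre, so nothing is read from their place in the ranking.

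Genes that act with caspases were read from 7 lists of 111 genes, of which 110 symbols were in the matrix and 77 had a mean of at least 1 FPKM. With limma, 0 of the 77 passed an adjusted p of 0.05 over all genes tested, and adjusted p ran from 0.248 to 0.996. At an unadjusted p under 0.05 there were 8 higher and 9 lower, 22.1% of the 77 against 16.5% of all genes (8.43% higher and 8.12% lower). The groups did not overlap for 11 higher and 13 lower genes, 31.2% against 24.7% of the 11607 genes tested (13.4% higher and 11.3% lower). Without K15SKO 3, which no label gives ground to leave out, 31 of the 77 passed, 40.3% against 23.6% of all genes. Of these 31, 17 were higher and 14 lower, against 10.8% and 12.8% of all genes. All these counts include genes that reached the filter only through a single group. Bcl2 is among the 9 lower and the 13 lower without overlap, and Ripk2 is among the 11 higher without overlap. Bcl2, Birc5 and Bok are among the 31. Bok, a Bcl2 family gene, was at 0.786, 1.06 and 0.677 FPKM across MyoCre libraries 1 to 3. It was at 2.74, 2.22 and 0.707 FPKM across K15SKO libraries 1 to 3. Nothing is therefore read from the excess over all genes.

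The apoptosome, the inhibitors of apoptosis and the execution genes stand directly around Casp9 and Casp6. Their list had a median log2 difference of −0.02 over 13 tested genes, beside −0.02 over all genes tested. Where means are set against each other for these genes, K15SKO comes first and MyoCre second. Diablo, which relieves caspases of their inhibitors, stood at 41.3 ± 2.21 against 33.8 ± 2.05 FPKM (SD, n = 3 each), with a limma adjusted p of 0.285. Birc5 and Birc3, an inhibitor family, were at 3.81, 2.68 and 0.120 FPKM and at 4.12, 3.96 and 1.65 FPKM across K15SKO libraries 1 to 3, beside means of 0.116 and 1.69 FPKM in MyoCre. Birc5 reached the filter only through K15SKO 1 and 2, so its values are given with no test. For Birc3 the limma adjusted p was 0.312, and 0.0100 without K15SKO 3. Htra2, a mitochondrial protease that counters the inhibitors, stood at 10.1 ± 0.717 against 8.80 ± 0.324 FPKM, without overlap (limma adjusted p = 0.345).

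The Bcl2 family, which controls the mitochondrial step ahead of Casp9, had a median of 0.06 over 12 tested genes. Bcl2, the survival factor, was at 1.29, 2.14 and 1.68 FPKM across MyoCre libraries 1 to 3 and at 0.748, 0.484 and 0.759 FPKM across K15SKO libraries 1 to 3, with no overlap. Its K15SKO mean was 0.664 FPKM, so it reached the filter only through MyoCre, and no test is given. Bak1, a pore former, stood at 14.8 ± 4.18 against 8.94 ± 0.325 FPKM and Bad, a BH3-only protein, at 11.8 ± 3.10 against 7.67 ± 0.656 FPKM (SD, n = 3 each), both without overlap, with limma adjusted p of 0.276 and 0.279. Bnip3l, a mitophagy receptor, stood at 15.9 ± 2.28 against 20.3 ± 2.24 FPKM (limma adjusted p = 0.303).

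Death receptor and necroptosis genes, the inputs to Casp8, had a median of 0.08 over 10 tested genes. Tnfrsf21, death receptor DR6, was at 12.9, 13.6 and 13.8 FPKM across MyoCre libraries 1 to 3 and at 10.4, 10.3 and 11.3 FPKM across K15SKO libraries 1 to 3 (limma adjusted p = 0.272). Tnfsf10, the death ligand TRAIL, stood at 1.43 ± 0.122 against 2.60 ± 0.808 FPKM (limma adjusted p = 0.282). Tnfrsf1a, the main receptor of tumour necrosis factor, and its adaptor Tradd were at 12.2, 11.7 and 8.19 FPKM and at 2.55, 2.72 and 1.31 FPKM across K15SKO libraries 1 to 3, beside 7.87 ± 0.642 and 1.33 ± 0.116 FPKM in MyoCre. For that pair the limma adjusted p was 0.303 and 0.336, and 0.0209 and 0.0206 without K15SKO 3.

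Inflammasome and pyroptosis genes surround Casp1 and Casp4, and most were low in this muscle: 6 of 21 listed genes had a mean of at least 1 FPKM. In K15SKO 1, 2 and 3, 18, 18 and 8 of the 21 were above every MyoCre library, against 36.6%, 36.8% and 29.9% of all genes. These counts include the genes below 1 FPKM. The macrophage markers given above were high in the first 2 of these libraries, and their part in the counts was not tested. Gsdmd, the pore protein cut by Casp1 and Casp4, was at 1.18, 1.22 and 1.01 FPKM across MyoCre libraries 1 to 3 and at 2.73, 3.31 and 1.57 FPKM across K15SKO libraries 1 to 3, without overlap (limma adjusted p = 0.272). Nek7, a kinase needed by the NLRP3 inflammasome, stood at 43.0 ± 11.8 against 66.6 ± 4.98 FPKM (limma adjusted p = 0.272). Ripk2, the kinase of NOD receptors, was at 0.996 ± 0.0499 FPKM in MyoCre, just under the filter, and at 1.55 ± 0.422 FPKM in K15SKO, and is given with no test. Nod1, a sensor of bacterial cell walls, stood at 2.91 ± 0.179 against 3.51 ± 0.298 FPKM (limma adjusted p = 0.344). Without K15SKO 3, 3 of the 6 passed, 2 higher and 1 lower, against 23.6% of all genes (10.8% higher and 12.8% lower).

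PIDDosome and p53 genes, which act with Casp2, had a median of −0.13 over 9 tested genes. Cdkn1a, the cell cycle inhibitor p21, was at 7.61, 5.22 and 5.28 FPKM across MyoCre libraries 1 to 3 and at 20.5, 13.9 and 10.3 FPKM across K15SKO libraries 1 to 3, without overlap (log2 difference 1.14, SE 0.26, limma adjusted p = 0.251). Cradd, the adaptor that joins Casp2 to the PIDDosome, stood at 3.41 ± 0.245 against 4.26 ± 0.455 FPKM (limma adjusted p = 0.310). Ccng1, cyclin G1, stood at 299 ± 46.6 against 392 ± 31.4 FPKM, and Mdm2, the ligase of p53, at 18.9 ± 1.22 against 23.0 ± 1.58 FPKM (limma adjusted p = 0.291 and 0.292).

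Endoplasmic reticulum stress genes, named beside Casp12 for its cellular location, had a median of −0.02 over 21 tested genes, beside −0.02 over all genes. Chac1, a glutathione-degrading enzyme of the stress response, was at 142, 129 and 190 FPKM across MyoCre libraries 1 to 3 and at 31.9, 31.9 and 74.4 FPKM across K15SKO libraries 1 to 3, without overlap (log2 difference −1.81, SE 0.35, limma adjusted p = 0.248). Dnajb9, a chaperone of the reticulum, was at 19.0, 21.4 and 31.5 FPKM and Herpud1, a degradation factor there, at 49.5, 57.4 and 100.03 FPKM across K15SKO libraries 1 to 3, beside 36.8 ± 3.48 and 110 ± 5.48 FPKM in MyoCre (limma adjusted p = 0.272 and 0.283). Pdia4, a disulfide isomerase, went the other way at 5.71 ± 1.22 against 3.70 ± 0.571 FPKM (limma adjusted p = 0.279). The large chaperone Hspa5 and the stress factors Atf4, Ddit3 and Xbp1, named after their values were seen, differed on the log2 scale by −0.32, −0.07, −0.08 and −0.0012 in that order (limma adjusted p = 0.438, 0.851, 0.860 and 0.996).

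Calpains, calcium-activated proteases reported to process the Casp12 protein, had a median of 0.14 over 6 tested genes. Capn2, the catalytic subunit of m-calpain, was at 21.3, 20.0 and 22.6 FPKM across MyoCre libraries 1 to 3 and at 45.1, 41.1 and 25.5 FPKM across K15SKO libraries 1 to 3, without overlap (log2 difference 0.74, SE 0.22, limma adjusted p = 0.272). Capns1, its small subunit, stood at 170 ± 23.9 against 128 ± 7.78 FPKM (limma adjusted p = 0.283), also without overlap. Cast, the calpain inhibitor, stood at 24.6 ± 1.39 against 20.5 ± 2.63 FPKM, and Capn7 at 16.8 ± 2.97 against 20.2 ± 1.16 FPKM (limma adjusted p = 0.325 and 0.350). Without K15SKO 3, 4 of the 6 calpain genes passed, 2 higher and 2 lower, against 23.6% of all genes. Capn2 and Capns1 were the higher ones and Capn7 was among the lower (limma adjusted p = 0.00732, 0.0192 and 0.0310).

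**Figure D4:**
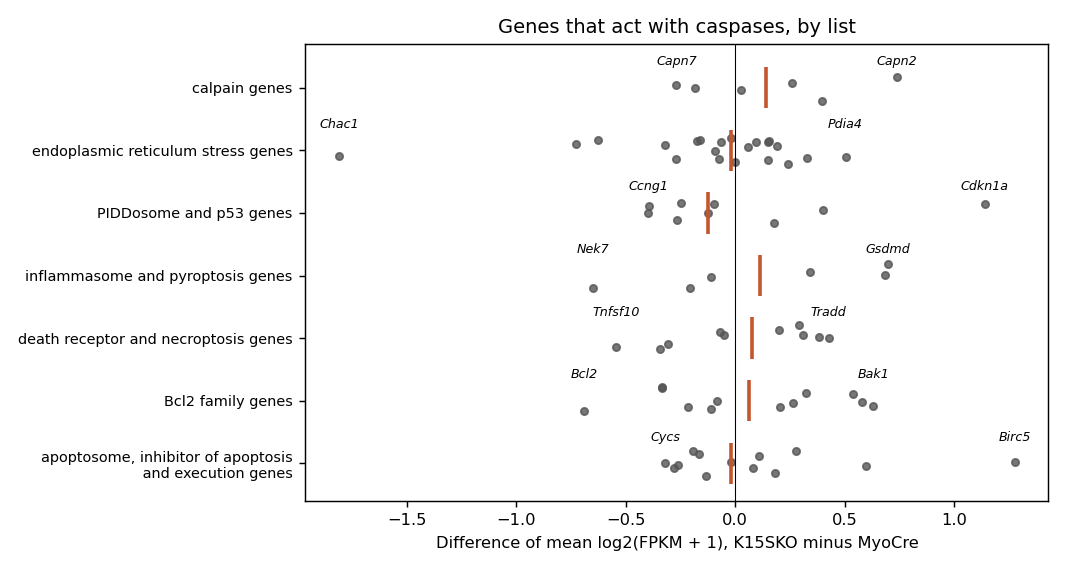
Difference of mean log2(FPKM + 1), K15SKO minus MyoCre, for the 77 tested genes of the 7 lists, with a point for each gene, an orange bar for the list median and the lowest and highest gene named. The list medians lie between −0.13 and 0.14, and Chac1 at −1.81 and Birc5 at 1.28, the latter above the filter only through K15SKO, are the extremes.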

How the data were processed

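RNA was sequenced from 3 MyoCre and 3 K15SKO quadriceps libraries. The submitters' processing notes name the mm10 build and the tools Cufflinks, Cuffdiff and STAR; the sources used here give no versions, annotation or strandedness. A single matrix of FPKM was deposited by the authors for 23314 genes, with the unit inferred from the values and those tools; it holds no counts, so no counting interval is given. Columns were matched by sample description, and 0 columns belonged to no sample.

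Genes with a mean of at least 1 FPKM over the 6 libraries (11607) were fitted with limma 3.58.1 (R 4.3.3) on log2(FPKM + 1) (intensity trend, two-sided, Benjamini-Hochberg over all genes tested, threshold 0.05). The fit was also run on simulated data that gave each gene the same SD in both groups. In the data the median SD was 0.224 in K15SKO and 0.115 in MyoCre, so that check cannot speak to unequal spread. Tables and plots used Python 3.11.15, pandas 2.3.3, Biopython 1.88 and matplotlib 3.10.9. Coordinates came from GENCODE M21. Members and lists were chosen with earlier results of these data known, and 2 genes of the lists are not reported here. The text names the members, Klf15, up to 4 genes per list with the smallest p, the 5 nearest profiles to Casp12 and the first 3 genes of a marker list at most. Outside that rule, Hspa5, Atf4, Ddit3, Xbp1, Bok, Cela2a and Gm37760 were named after values were seen. So were Birc2, Pdgfd and Mmp12 as chromosome 9 neighbours. Alternatives were pseudocounts of 0.1 and 0.5, no filter or a minimum mean of 5 FPKM, scaling by quantiles or by median of ratios, eBayes with no trend, the replicate number as a block, each library left out, and, added after seeing the data, leaving out genes at 0 throughout a group.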

Additional observations from a re-analysis of the deposited data

How the results depend on the processing

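The Casp12 difference kept its sign in 10 of 10 alternatives, from −0.98 (pseudocount 0.1) to −0.85, and from −0.92 to −0.85 with each library left out. Leaving out a library or changing the pseudocount could not turn that sign, since the groups did not overlap. Casp12 was chosen from this contrast, so nothing is read from the kept sign. Over all members, 69 of 70 alternative values moved by less than the spread between replicates, and 64 of these also kept their sign. The exception was Casp12 with a pseudocount of 0.1, at −0.98 against −0.89, beside a spread (SD) of 0.057. With each library left out, the log2 difference ran from 0.05 to 0.51 for Casp1, −0.18 to 0.15 for Casp4, 0.18 to 0.47 for Casp8, −0.12 to 0.14 for Casp9, −0.12 to −0.01 for Casp2 and 0.28 to 0.74 for Casp6. The sign changed for Casp4 without K15SKO 1 (−0.18) and with quantile scaling (−0.069), and for Casp9 without K15SKO 2 (−0.12), without MyoCre 3 (−0.04) and with quantile scaling (−0.017); the cause was not tested. Of all genes, 6 passed limma's threshold, against 3 with no filter and 0 after leaving out genes at 0 throughout a group (1930 at an unadjusted p under 0.05). With each library left out the count ran from 3 to 2743, the last without K15SKO 3, and was 3 without MyoCre 1 and 3 without MyoCre 2. Of the 77 pathway genes, 0 passed, as in every alternative but that without K15SKO 3, where 31 did (range 0 to 31). Same-numbered libraries deviated together at correlations of 0.002, 0.085 and 0.094, so the numbers were not taken as pairs, and MyoCre 1 did not correlate best with its own number; with the replicate block 3 genes and 0 pathway genes passed. Depth limits Casp1 and Casp4 most, since both lie under 1 FPKM on average.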
